A study of Mus musculus with 18 samples.

Results

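Bulge cells that had kept their full H2B-GFP label were compared between postnatal day 25 (PD25) and PD21. The 6 arrays were chosen by their titles, as 3 undivided bulge arrays after the PD22 to PD25 doxycycline chase and 3 after the PD18 to PD21 chase, of 18 arrays in the series. All mice had the genotype K5tTA x pTRE-H2B-GFP, with FvB and CD1 as the named parental strains, and ate doxycycline at 1 g per kg of food during the chase. The keratin 5 promoter drove the tet-off transactivator, so only cells that use this promoter carried the label, and doxycycline stopped new label from being made in both age groups alike. Skin cells were sorted on CD34 and α6-integrin as bulge, and on GFP brightness as cells with 0 divisions since the chase began. Each group held 3 mice, numbered 1 to 3, and mice of PD25 and PD21 were different animals. The other 12 arrays held bulge cells that had divided 1 to 2 times and non-bulge cells of the same mice. The labels do not state sex, and genes on the X and Y chromosomes were left out, which left 11225 genes for the test.

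The bulge is the part of the outer root sheath that holds hair follicle stem cells, which are mostly quiescent while the follicle rests and are called to divide when a new hair begins to grow. A cell that prepares to divide first makes the proteins that copy DNA, and then, in G2 and mitosis, cyclins, spindle motors and kinetochore proteins whose mRNAs rise and are cleared within each cycle. Because histone label is diluted only when a cell divides, a cell can hold mRNAs for mitosis and still count as undivided. Growth of a new hair is tied to Wnt, BMP, FGF and Hedgehog signals between the bulge, the hair germ and the dermal papilla.

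The trimmed mean signal was 500 on each of the 18 arrays, and the medians lay between 60.3 and 116.6. Levels are given as log2(signal + 16), where 16 is a pseudocount, and fold changes are differences on this scale, PD25 minus PD21, which understate the change of dim genes. The hybridisation spike-ins split the arrays into a set A with mean log2 levels of 10.73 to 11.09 and a set B with 12.39 to 12.99, 9 arrays each. Set A held PD25 mouse 1 and PD21 mice 1 and 2 of the undivided bulge, and set B held PD25 mice 2 and 3 and PD21 mouse 3. The labels do not say what these sets are, so values with the set as a block and within each set stand beside the results. The sorting marker Cd34 stood at 12.50, 12.24 and 12.42 in PD25 undivided bulge and at 13.12, 12.40 and 12.67 in PD21 undivided bulge, against 4.97 ± 0.75 in PD25 and 4.52 ± 0.73 in PD21 non-bulge cells (SD, n = 3 each). In PD21 divided bulge it was 9.19, 7.91 and 9.68, below the 11.56 to 12.87 of PD25 divided bulge, so these 3 arrays stood apart from the other bulge arrays. Every difference between undivided and divided bulge given here rests on them, and the part of their low Cd34 level in those differences was not tested. The stem cell transcription factors Lhx2 and Sox9 averaged 11.79 and 12.84 in PD25 and 11.79 and 13.07 in PD21 undivided bulge, so the cells of both ages carried bulge markers.

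In undivided bulge 4 genes passed the test. Kif11, the kinesin motor that pushes spindle poles apart, and Eri2, a member of an exoribonuclease family, rose at PD25. Fcgbp, a secreted mucin-like protein that binds the Fc part of IgG, and Lrp4, a receptor of the LDL receptor family that modulates Wnt signalling, fell. In limma's moderated test with Benjamini-Hochberg adjustment these 4 genes were 0.0356% of the 11225 tested, and 895 genes, or 7.97%, had an unadjusted p below 0.05. Of these 529 were higher and 366 lower at PD25. With 3 arrays against 3, the smallest p an exact two-sided permutation test of a single gene can give is 0.1, which Kif11, Eri2, Fcgbp and Lrp4 reached. Any gene whose groups do not overlap reaches it, and 7.04% of all genes did so as higher and 5.11% as lower. The limma p-values rest on a spread between arrays that was pooled over all 18 arrays and moderated across genes, not on the 6 undivided bulge arrays alone. With only the groups compared 33 genes passed, and 3 of these 4 were among them.

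Kif11 stood at 11.14, 10.73 and 10.97 in the 3 PD25 mice and at 9.58, 9.41 and 8.65 in the 3 PD21 mice. Every PD25 array lay above every PD21 array, and the group means were 10.95 ± 0.21 and 9.21 ± 0.50 (SD, n = 3 each). The log2 fold change was 1.73 ± 0.32 (SE), or 3.32-fold, with an adjusted p of 0.048. All 3 Kif11 probe sets were higher at PD25, by 1.12 to 1.73. With the spike-in set as a block the value was 1.70 (adjusted p = 0.0363), and the differences within sets A and B were 1.64 and 2.20. The call was lost with 5 of the 6 arrays left out in turn, with adjusted p-values of up to 0.141.

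Eri2 stood at 11.28, 10.63 and 11.23 at PD25 and at 8.5, 10.19 and 9.45 at PD21. The groups, with SDs of 0.36 at PD25 and 0.85 at PD21, did not overlap, and PD21 mouse 2 was the closest to the PD25 arrays. Its log2 fold change was 1.67 ± 0.30 (adjusted p = 0.0448), 1.94 within set A and 1.48 within set B. Without PD21 mouse 1, the array with the lowest value, it was 1.23 (adjusted p = 0.257), and the call was lost with 5 of the 6 arrays left out in turn.

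Fcgbp stood at 8.80, 8.27 and 9.17 in PD25 mice and at 12.11, 10.91 and 11.27 in PD21 mice. The groups lay clearly apart, with a log2 fold change of -2.69 ± 0.40 (adjusted p = 0.00681), so that the signal was 6.45-fold higher in PD21. The difference was -2.72 within set A and -2.55 within set B. Of the 4 genes it passed under the most alternative settings, 17 of 22, and the call was lost with 2 of the 6 arrays left out in turn.

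Lrp4 stood at 9.06, 8.61 and 8.20 at PD25 and at 10.20, 10.15 and 10.22 at PD21. The 3 PD21 arrays were nearly equal, and all 3 PD25 arrays lay below them. The log2 fold change was -1.57 ± 0.25 (adjusted p = 0.0146), with -1.11 within set A and -1.82 within set B. Lrp4 was 1 of 11 tested members of the LDL receptor family, of which no other passed, and the list's median was -0.22 beside 0.02 for all genes tested. That median was 0.29 within set A and -0.39 within set B, with 5 members above and 6 below 0. The call of Lrp4 was lost with 4 of the 6 arrays left out in turn, with adjusted p-values of up to 0.0833.

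**Figure D1:**
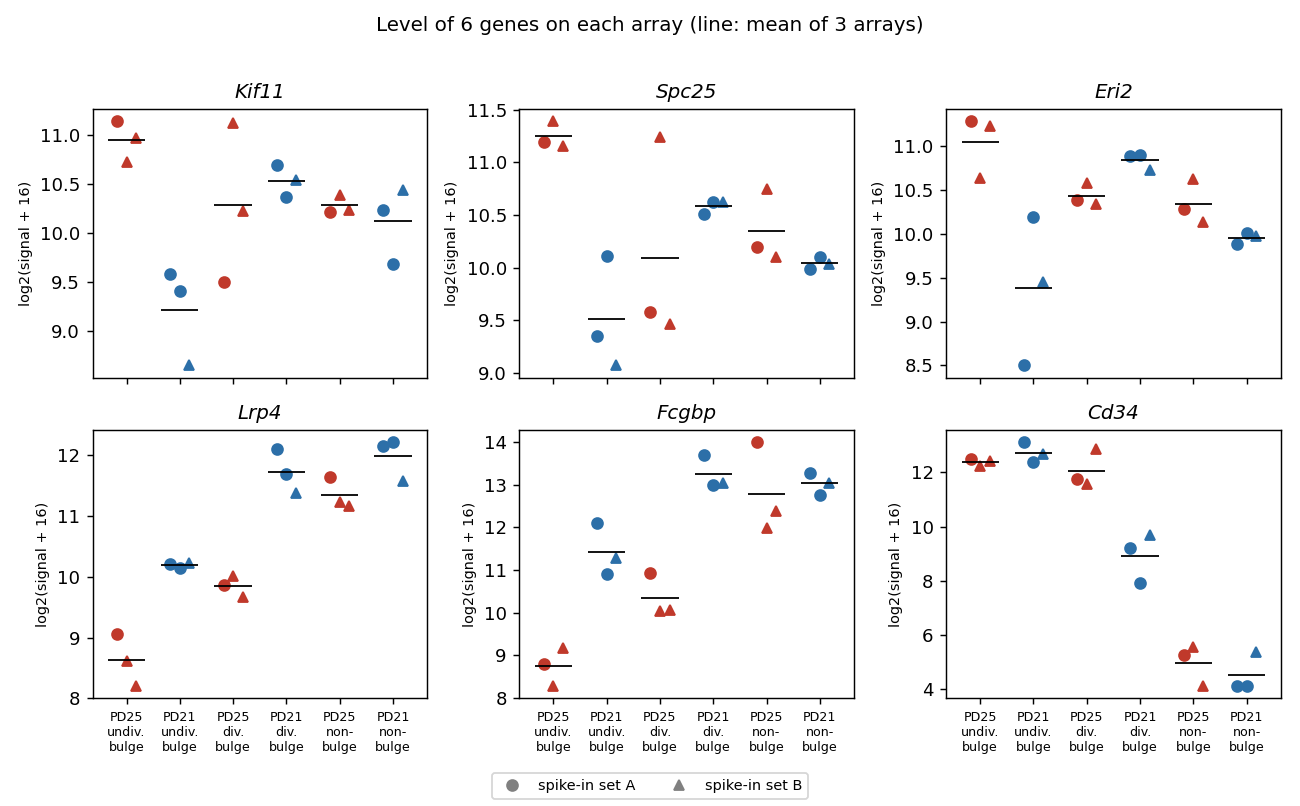
Level of Kif11, Spc25, Eri2, Lrp4, Fcgbp and Cd34 on each of the 18 arrays, as log2(signal + 16), by fraction and age, with PD25 in red left of PD21 in blue. Circles are arrays of spike-in set A, triangles those of set B and lines the means of 3 arrays. In undivided bulge Kif11, Spc25 and Eri2 lay higher and Lrp4 and Fcgbp lower on all 3 PD25 arrays, while Cd34 in PD21 divided bulge lay at 7.91 to 9.68.

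These counts depend on single arrays. The test called 0 genes without PD21 mouse 1 or without PD25 mouse 2, 2 without any of PD21 mouse 3, PD25 mouse 1 or PD25 mouse 3, and 18 without PD21 mouse 2. With the spike-in set as a block 32 genes passed (0.285%), 18 higher and 14 lower.

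Genes of mitosis and the spindle made up the group with the highest median among the lists. All 51 tested members had a log2 fold change above 0, against 51.7% of all genes tested, and the median was 1.43 beside 0.02 for all genes. The members ran between 0.42 for the chromosome-arm kinesin Kif22 and 2.34 for the centrosomal kinase Nek2. One of 51, Kif11, passed the test (0.0178% of all genes passed as higher). An unadjusted p below 0.05 was found for 44 members as higher and 0 as lower, against 4.71% and 3.26% of all genes. In 43 members every PD25 array lay above every PD21 array, against 7.04% of all genes. Kif4 was left out with the X chromosome, and Ccnb1 was not analysed here.

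The mean level over the 51 genes was 10.18, 10.32 and 10.36 in PD25 undivided bulge and 8.51, 9.30 and 8.80 in PD21 undivided bulge. The PD25 arrays thus lay within a narrow band and the PD21 arrays below it, with PD21 mouse 1 the lowest. The list's median was 1.33 within set A and 1.51 within set B, with 49 and 51 members above 0. It lay between 1.26, without PD21 mouse 1, and 1.70, without PD21 mouse 2, when single arrays were left out. In these bulk samples, a larger share of cells that hold such mRNAs and more mRNA in each cell cannot be told apart. The counts describe these arrays and are no independent test of the list.

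**Figure D2:**
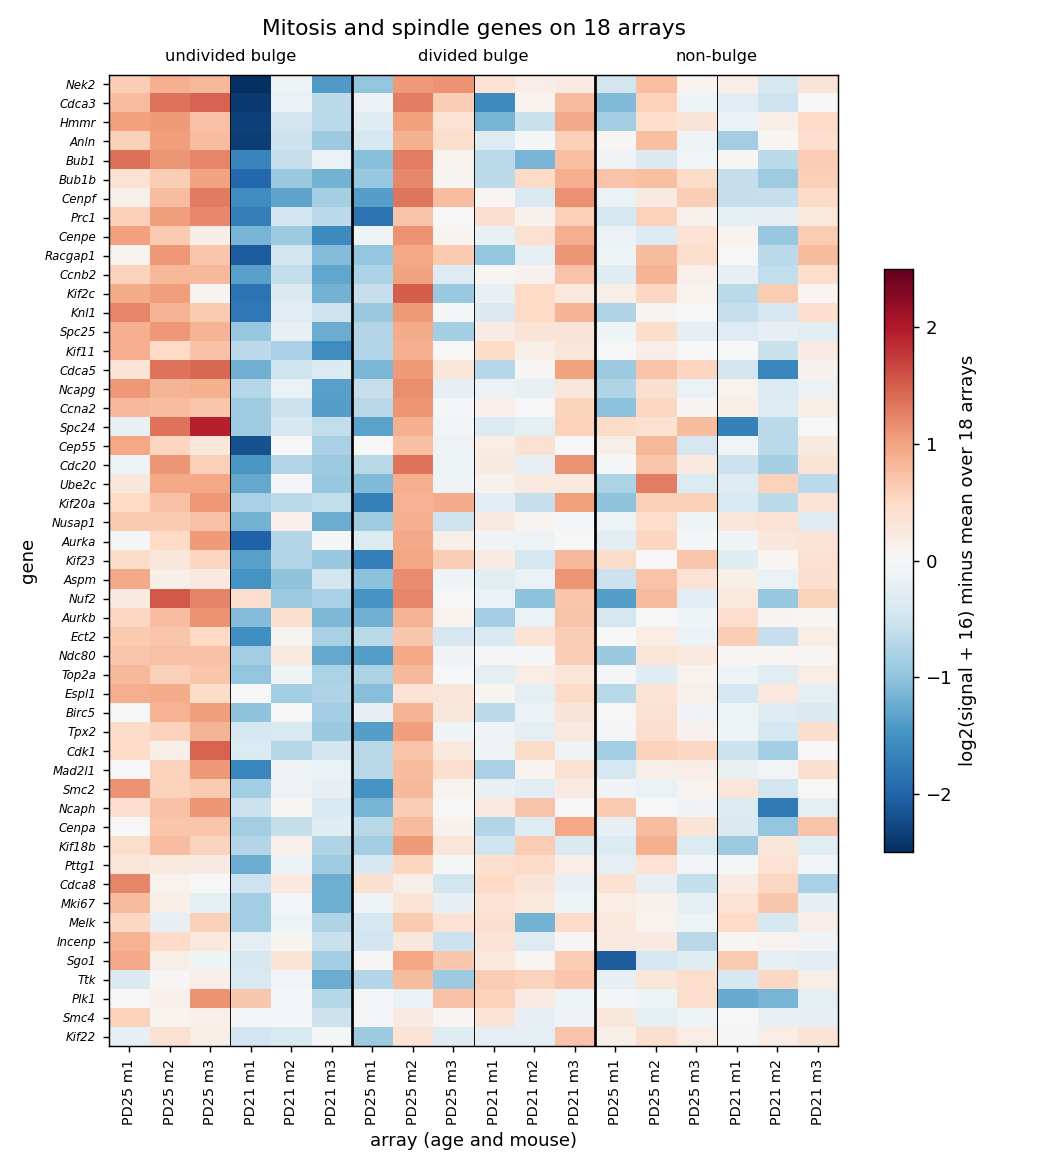
Level of the 51 tested mitosis and spindle genes on the 18 arrays, each gene as log2(signal + 16) minus its mean over the arrays, with genes ordered by their log2 fold change in undivided bulge. Red is above and blue below the gene's mean. The 3 PD25 undivided bulge arrays are red in most rows and the 3 PD21 undivided bulge arrays blue, with list means of 10.18 to 10.36 and 8.51 to 9.30.

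At the kinetochore, Spc25 is a subunit of the Ndc80 complex, which holds spindle microtubules. It stood at 11.19, 11.39 and 11.16 at PD25 and at 9.35, 10.11 and 9.07 at PD21, without overlap. The log2 fold change was 1.74 ± 0.34, and its adjusted p of 0.0613 missed the threshold, while the value with the spike-in set as a block, 1.71, passed (adjusted p = 0.0423). The other subunits stood at 1.68 ± 0.53 (Spc24), 1.35 ± 0.48 (Ndc80) and 1.42 ± 0.67 (Nuf2). Nuf2 overlapped between the ages, since PD21 mouse 1 stood at 8.37 and PD25 mouse 1 at 8.14. The kinetochore motor Cenpe stood at 10.58, 10.21 and 9.70 in PD25 mice and at 8.38, 8.65 and 7.96 in PD21 mice (1.83 ± 0.40, adjusted p = 0.0613). Among checkpoint genes, Bub1 and Bub1b had fold changes of 2.03 and 2.01 and Mad2l1 of 1.19. The checkpoint kinase Ttk stood at 0.50 ± 0.38 and the mitotic kinase Plk1 at 0.46 ± 0.53, both with overlap and with a difference below 0 within set A.

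Cyclins of G2 and mitosis also lay apart between the ages. Ccna2 stood at 11.97, 11.93 and 11.86 at PD25 and at 10.28, 10.62 and 9.79 at PD21. Ccnb2 stood at 10.14, 10.40 and 10.38 at PD25 and at 8.22, 8.98 and 8.28 at PD21. No array overlapped in either gene, which the rule that named them required. The log2 fold changes were 1.69 ± 0.37 and 1.82 ± 0.40, both with an adjusted p of 0.0613. With the spike-in set as a block both passed at an adjusted p of 0.0498. Their partner kinase Cdk1 stood at 1.21 ± 0.40, the anaphase activator Cdc20 at 1.55 ± 0.44 and the ubiquitin carrier Ube2c at 1.5 ± 0.47.

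For chromosome condensation and cytokinesis the same direction was seen in the values. The condensin subunit Ncapg stood at 11.24, 11.01 and 11.05 at PD25 and at 9.43, 9.98 and 8.80 at PD21 (1.70 ± 0.37, adjusted p = 0.0613). Anillin (Anln), a scaffold of the contractile ring, stood at 10.31, 10.76 and 10.48 at PD25 and at 7.37, 9.17 and 8.80 at PD21 (2.07 ± 0.42, adjusted p = 0.0613). In both genes the lowest PD25 array lay above the highest PD21 array, which was a condition of a rule that named them. Top2a, the topoisomerase that untangles sister chromosomes, stood at 1.33 ± 0.30 (adjusted p = 0.0767), although its 2 probe sets ran between 0.09 and 1.33. The proliferation marker Mki67 stood at 13.74, 13.12 and 12.70 at PD25 and at 12.11, 12.93 and 11.74 at PD21, with overlap (0.92 ± 0.32, adjusted p = 0.358). Its difference was 1.22 within set A and 1.17 within set B, and with the set as a block it passed at 1.08 (adjusted p = 0.0498). In that fit 9 of the 51 genes passed as higher, against 0.16% of all genes. They were Kif11, Spc25, Cenpf, Cdca8, Ccna2, Ccnb2, Mki67, Prc1 and Anln.

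Spindle and transport genes outside the list were named by the same rule. Tacc3, which stabilises spindle microtubules, stood at 11.17, 11.20 and 11.57 at PD25 and at 10.28, 9.70 and 10.07 at PD21 (1.30 ± 0.27). Kpna2, an importin that carries proteins into the nucleus, stood at 12.43, 12.21 and 12 at PD25 and at 10.95, 11.43 and 10.71 at PD21 (1.18 ± 0.25). Both had an adjusted p of 0.0613 and no overlap, which that rule required.

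Promoters of cell cycle genes are known to carry the cell cycle genes homology region (CHR), bound by complexes that repress these genes in resting cells, and CCAAT boxes, bound by NF-Y. The 250 bases before the start of 6 genes are shown because they differ in these letters, with TTTGAA and TTCGAA (CHR) and CCAAT in capitals on either strand, so that TTCAAA and ATTGG are the same motifs read from the other strand. They are taken from RefSeq annotation of GRCm38.p6 and are written on the gene's strand. Kif11 lies at chr19:37376132-37376381 on the plus strand, Spc25 at chr2:69206214-69206463, Ccnb2 at chr9:70421555-70421804 and Top2a at chr11:99024190-99024439, all 3 on the minus strand. Eri2 lies at chr7:119794059-119794308 on the minus strand and Fcgbp at chr7:28070986-28071235 on the plus strand.
Kif11: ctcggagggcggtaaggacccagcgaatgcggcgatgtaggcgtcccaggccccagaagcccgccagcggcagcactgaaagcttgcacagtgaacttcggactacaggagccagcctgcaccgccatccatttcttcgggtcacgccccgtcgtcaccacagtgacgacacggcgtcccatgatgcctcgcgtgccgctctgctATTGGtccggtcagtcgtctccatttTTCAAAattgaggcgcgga
Spc25: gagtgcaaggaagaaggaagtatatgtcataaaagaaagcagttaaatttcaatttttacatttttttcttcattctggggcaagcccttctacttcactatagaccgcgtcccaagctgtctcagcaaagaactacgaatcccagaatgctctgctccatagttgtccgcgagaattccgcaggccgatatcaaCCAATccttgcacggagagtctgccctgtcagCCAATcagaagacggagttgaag
Ccnb2: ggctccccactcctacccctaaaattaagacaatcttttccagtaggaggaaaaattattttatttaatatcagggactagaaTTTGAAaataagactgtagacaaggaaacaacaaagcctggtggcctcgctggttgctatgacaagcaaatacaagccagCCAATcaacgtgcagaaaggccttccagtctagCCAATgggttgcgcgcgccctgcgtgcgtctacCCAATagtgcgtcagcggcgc
Top2a: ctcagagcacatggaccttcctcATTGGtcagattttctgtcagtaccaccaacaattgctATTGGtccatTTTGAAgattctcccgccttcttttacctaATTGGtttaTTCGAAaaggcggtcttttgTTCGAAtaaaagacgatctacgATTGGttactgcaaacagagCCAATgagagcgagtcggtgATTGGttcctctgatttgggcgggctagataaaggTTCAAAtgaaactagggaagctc
Eri2: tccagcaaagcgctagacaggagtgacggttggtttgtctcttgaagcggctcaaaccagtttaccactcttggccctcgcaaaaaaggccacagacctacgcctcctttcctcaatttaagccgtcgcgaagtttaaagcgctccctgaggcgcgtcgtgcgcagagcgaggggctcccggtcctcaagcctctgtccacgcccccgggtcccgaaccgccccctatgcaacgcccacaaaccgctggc
Fcgbp: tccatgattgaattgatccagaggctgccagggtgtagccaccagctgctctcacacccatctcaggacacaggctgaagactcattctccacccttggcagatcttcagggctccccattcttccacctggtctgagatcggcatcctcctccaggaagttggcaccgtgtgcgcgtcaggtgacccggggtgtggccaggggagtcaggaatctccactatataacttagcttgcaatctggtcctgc
Kif11 held 1 CHR and 1 CCAAT, Spc25 held 0 and 2, Ccnb2 held 1 and 3, and Top2a held 4 and 6, while Eri2 and Fcgbp held none. Top2a and Ccnb2 were chosen for display after their values were seen. Of the mitosis and spindle list 44 of 51 genes had a promoter in the table, and 13 of them, or 29.5%, held both motifs. The share with both was 4.62% over 9074 genes tested and 6.21% over all 27025 promoters. The CHR was found in 34.1% and CCAAT in 68.2% of the list, against 11.8% and 36.4% of genes tested and 17.4% and 34.5% of all promoters. A match describes letters in the window and does not show a bound site.

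In the DNA replication list all 43 tested members had a log2 fold change above 0, with a median of 0.95, but none passed, and 28 had an unadjusted p below 0.05, all higher, against 4.71% of all genes. In 29 members the PD25 arrays all lay above the PD21 arrays, against 7.04% of all genes. The members ran between 0.13 for Pole2 and 1.78 for Gins1, a subunit of the helicase complex. The mean level over the 43 genes was 10.66, 10.75 and 10.76 at PD25 and 9.50, 10.10 and 9.80 at PD21, and the groups did not overlap.

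Pold1, the catalytic subunit of DNA polymerase delta, stood at 11.02, 11.36 and 11 in PD25 mice and at 9.94, 9.23 and 10.29 in PD21 mice (1.31 ± 0.28, adjusted p = 0.0613). The ligase Lig1 stood at 11.48, 11.52 and 12.02 at PD25 and at 10.03, 10.25 and 10.60 at PD21 (1.38 ± 0.34, adjusted p = 0.12). Neither gene overlapped between the ages, which was a condition of a rule that named Pold1. Rrm1, a subunit of ribonucleotide reductase, and the flap endonuclease Fen1 had fold changes of 1.07 ± 0.26 and 0.91 ± 0.24, and both passed with the spike-in set as a block (adjusted p = 0.0498 and 0.0363). Among the helicase subunits Mcm2 to Mcm7 the values ran between 0.31 ± 0.42 for Mcm6 and 1.38 ± 0.42 for Mcm2, and Mcm3 alone of these 6 had no overlap. Pcna stood at 0.41 ± 0.35. Without PD21 mouse 1 the list's median was 0.75, its lowest value with 1 array left out. The licensing and initiation genes Cdt1 (1.13 ± 0.36) and Cdc6 (0.70 ± 0.45) had no overlap either.

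Of 30 regulators of G1 and cell cycle brakes, 0 passed in limma, and 7 were higher and 2 lower at an unadjusted p below 0.05, against 4.71% and 3.26% of all genes, so that the lower count was near the background. The higher ones were the E2F factors E2f1, E2f2, E2f3 and E2f8 (1.05 to 1.41), the kinase Cdk2 (1.28 ± 0.51), the retinoblastoma relative Rbl1 (1.01 ± 0.38) and the Cdk4 and Cdk6 inhibitor Cdkn2c. Cdkn2c stood at 10.11, 10.62 and 11.01 at PD25 and at 9.07, 9.47 and 8.62 at PD21 (1.53 ± 0.37, adjusted p = 0.104). The lower ones were Foxo1 (-0.85 ± 0.29) and Foxo3 (-0.88 ± 0.25), transcription factors linked to quiescence. Foxo3 stood at 11.61, 11.34 and 11.39 at PD25 and at 12.37, 12.59 and 12.02 at PD21, without overlap. The Cdk inhibitors Cdkn1a (-0.49 ± 0.43) and Cdkn1b (-0.07 ± 0.32) and the cyclins Ccnd1 (0.17 ± 0.22) and Ccnd2 (0.16 ± 0.45) overlapped between the ages.

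The age effect in undivided bulge was set against that in the other fractions of the same mice. The median over the 51 mitosis and spindle genes was 1.43 in undivided bulge, -0.10 in divided bulge and 0.09 in non-bulge cells. Their mean level was 8.85, 10.49 and 9.70 in PD25 and 9.51, 9.61 and 10.11 in PD21 divided bulge, and 9.36, 9.99 and 9.71 in PD25 and 9.46, 9.33 and 9.76 in PD21 non-bulge. PD25 divided bulge mouse 2 was the only one of those 12 arrays above the 3 PD25 undivided bulge arrays. The PD21 undivided bulge arrays, at 8.51 to 9.30, lay below all of them except PD25 divided bulge mouse 1.

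The difference of the age effects was tested in the same fit. For undivided minus divided bulge 132 genes passed (1.18%), 42 higher and 90 lower. Of the mitosis list 3 of 51 passed as higher, against 0.374% of all genes, namely Kif11 at 1.98 ± 0.45 (adjusted p = 0.0288), Spc25 at 2.23 ± 0.49 (adjusted p = 0.0201) and the midzone protein Prc1 at 2.65 ± 0.63 (adjusted p = 0.0348). Eri2 passed as well, at 2.07 ± 0.43 (adjusted p = 0.0134). Kif11 itself had an age effect of -0.25 ± 0.32 in divided bulge and 0.16 ± 0.32 in non-bulge cells, and neither passed. For undivided bulge minus non-bulge 0 genes passed in limma (0.0%), and 432 had an unadjusted p below 0.05, 251 of them higher. Of the mitosis list 30 of 51 were among the higher ones, against 2.24% of all genes, and the median difference was 1.31. Both differences contain the age effect in undivided bulge already given. These counts thus partly repeat it and are no independent test of the list or of the genes named from it. The fit did not use that the fractions came from the same mice. The count for undivided minus divided bulge was 479 with the mouse as a random block, 380 with the spike-in set as a block, 49 within set A and 0 within set B.

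Fcgbp and Lrp4 were lower at PD25 in both bulge fractions. In divided bulge Fcgbp fell by 2.91 ± 0.40 (adjusted p = 4.83e-05) and Lrp4 by 1.88 ± 0.25 (adjusted p = 4.73e-05). Fcgbp stood there at 10.92, 10.04 and 10.05 in PD25 and at 13.70, 13.00 and 13.05 in PD21 mice. The difference between the bulge fractions did not pass for either gene, at 0.23 ± 0.56 and 0.31 ± 0.36. In non-bulge cells the age effects were -0.24 ± 0.40 and -0.64 ± 0.25 and did not pass. In non-bulge cells Lrp4 stood at 11.34 ± 0.26 in PD25 and 11.98 ± 0.35 in PD21 mice, and Fcgbp at 12.79 ± 1.06 and 13.03 ± 0.25 (SD, n = 3 each). The PD21 divided bulge arrays, with their low Cd34, stood at 11.72 ± 0.36 for Lrp4 and 13.25 ± 0.39 for Fcgbp.

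**Figure D3:**
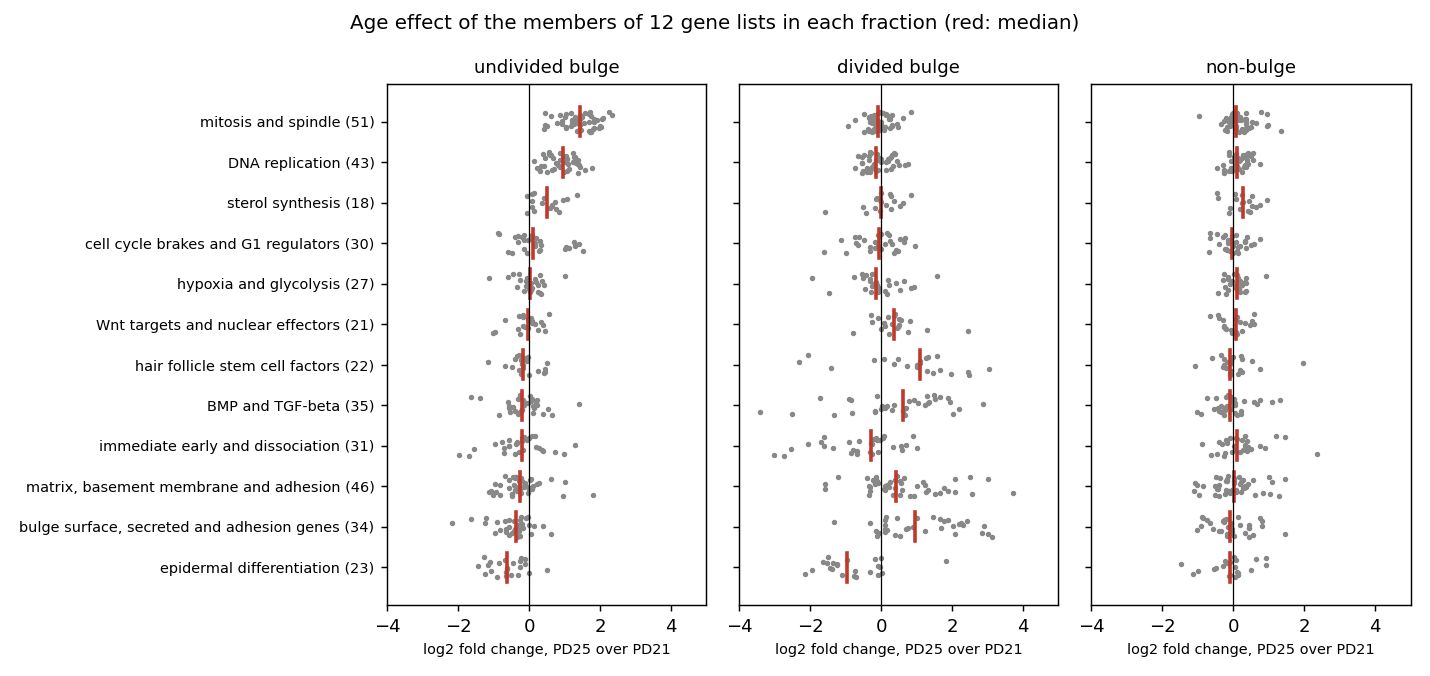
Log2 fold change, PD25 over PD21, of the tested members of 12 gene lists in undivided bulge, divided bulge and non-bulge cells. Points are genes, red lines medians and numbers in brackets the members tested. The mitosis and spindle list has a median of 1.43 in undivided bulge, against -0.10 in divided bulge and 0.09 in non-bulge, and the stem cell factors have -0.18, 1.10 and -0.08.

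Of 18 sterol synthesis genes 16 had a fold change above 0, with a median of 0.50, 0 passed and 5 had an unadjusted p below 0.05, all higher, against 4.71% of all genes. Hsd17b7, an enzyme of cholesterol synthesis, stood at 10.72, 10.97 and 11.11 at PD25 and at 9.65, 10.06 and 9.91 at PD21 (1.06 ± 0.23, adjusted p = 0.0613). Insig1, which restrains sterol synthesis, stood at 1.35 ± 0.35, Cyp51 at 0.72 ± 0.25 and Fdft1 at 0.66 ± 0.21, all without overlap. Outside that list, the fatty acid elongase Elovl6 stood at 11.71, 11.44 and 11.83 at PD25 and at 10.49, 10.10 and 10.14 at PD21 (1.42 ± 0.28, adjusted p = 0.0613). Of its 3 probe sets 2 had a fold change above 0, with a range of -0.33 to 1.92. Its age effect differed from that in divided bulge by 1.71. The desaturase Scd3 stood at 10.72, 10.66 and 9.88 at PD25 and at 7.79, 6.99 and 8.15 at PD21 (2.78 ± 0.66, adjusted p = 0.0981). It belongs to the isthmus, infundibulum and sebaceous list, whose 18 tested genes had a median of 0.04, with 10 above and 7 below 0.

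Among genes with lower values at PD25, the next after Fcgbp and Lrp4 all had an adjusted p of 0.0613. Adm, the vasoactive peptide adrenomedullin, stood at 8.67, 6.62 and 7.80 at PD25 and at 12.56, 11.39 and 10.41 at PD21 (-3.76 ± 0.83). It was the most negative fold change of all genes tested, and it was -3.31 within set A and -3.20 within set B. Netrin 4 (Ntn4), a laminin-binding matrix protein, stood at 9.06, 8.44 and 8.31 at PD25 and at 10.67, 10.14 and 9.98 at PD21 (-1.66 ± 0.36). The glycine transporter Slc6a9 stood at 8.32, 8.65 and 8.91 at PD25 and at 10.22, 9.90 and 10.32 at PD21 (-1.52 ± 0.33), but its other probe set had a fold change of 0.78. No array of these 3 genes overlapped, which the rule that named them required. The remaining named genes, the cytochrome Cyp4b1, Lmo7, the lipid hydrolase Pnpla3, aminopeptidase N (Anpep), Arrdc3, Ly6d and the pentraxin Nptx1, ran between -1.2 for Cyp4b1 and -2.41 for Anpep. With the spike-in set as a block all 7 and Adm passed (0.125% of all genes passed as lower). The adjusted p was 0.037 for Cyp4b1 and 0.0227 for Adm, while Ntn4 (0.0555) and Slc6a9 (0.0525) did not pass. All 7 had differences below 0 within both sets. In divided bulge Adm, Lmo7, Pnpla3, Arrdc3, Ly6d and Nptx1 also passed in limma as lower, between -1.54 (Nptx1) and -2.79 (Adm). Cyp4b1, Anpep, Slc6a9 and Ntn4 did not, at -0.07 to -0.46. The PD21 divided bulge arrays, with their low Cd34, enter these values. Of these genes all but Cyp4b1, Anpep and Slc6a9 had higher means in non-bulge than in undivided bulge at both ages. Adm stood in non-bulge at 12.16 in PD25 and 13.08 in PD21 mice.

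**Figure D4:**
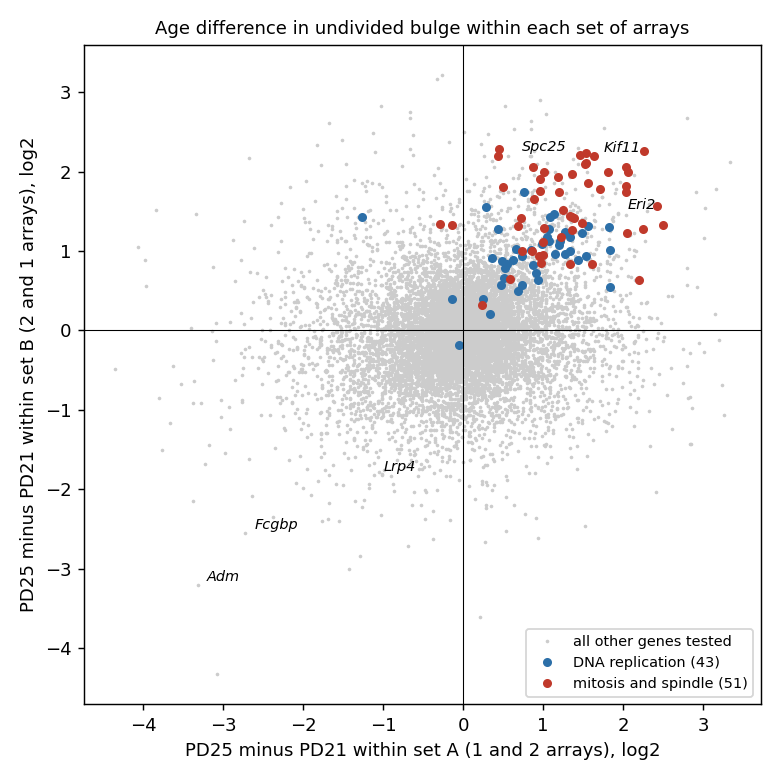
Difference PD25 minus PD21 in undivided bulge for each gene tested within spike-in set A (1 PD25 and 2 PD21 arrays, horizontal) and within set B (2 PD25 arrays and 1 PD21 array, vertical), in log2 units. Red points are mitosis and spindle genes and blue points DNA replication genes. Of the 51 mitosis genes 49 lie right of 0 and 51 above 0, and Lrp4, Fcgbp and Adm lie below 0 on both axes.

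Stem cell genes of the bulge showed no called change in the undivided fraction. Of 22 hair follicle stem cell factors 0 passed in limma, the median was -0.18 and 1 had an unadjusted p below 0.05, a share near the 3.26% of all genes lower. That was Klf5, a transcription factor of basal epithelia, which stood at 8.53, 9.04 and 8.53 at PD25 and at 9.80, 10.04 and 9.72 at PD21 (-1.15 ± 0.28, adjusted p = 0.116). Klf5 was also lower at PD25 in divided bulge (-2.31 ± 0.28) and stood at 11.41 in PD25 and 11.57 in PD21 non-bulge cells. Lhx2 had a fold change of -0.01 ± 0.25, Sox9 of -0.23 ± 0.27, Runx1 of -0.27 ± 0.27, Nfatc1 of 0.43 ± 0.34 and the R-spondin receptor Lgr5 of -0.96 ± 0.54. The sign of Lhx2 and Sox9 turned within set B, at 0.09 and 0.07. In divided bulge the list's median was 1.10, and the difference passed for 5 members as lower in undivided bulge (0.802% of all genes), among them Lhx2 at -2.47 ± 0.35 and Sox9 at -2.19 ± 0.38. These differences rest on the 3 PD21 divided bulge arrays with low Cd34.

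Of 34 bulge surface, secreted and adhesion genes 29 had a fold change below 0, with a median of -0.38, which was -0.20 without PD21 mouse 1 and -0.23 without PD25 mouse 3. None passed, and 8 had an unadjusted p below 0.05, all lower, against 3.26% of all genes. In 7 members every PD25 array lay below every PD21 array, against 5.11% of all genes. Angptl7, a secreted angiopoietin-like protein, stood at 9.76, 9.15 and 8.32 at PD25 and at 11.85, 10.76 and 11.13 at PD21 (-2.17 ± 0.53, adjusted p = 0.116). Sparc, a collagen-binding matrix protein, stood at 13.33, 12.86 and 12.87 at PD25 and at 14.76, 14.26 and 13.67 at PD21 (-1.21 ± 0.35). The latent TGF-beta binding protein Ltbp2 stood at -1.64 ± 0.63 and Igfbp3 at -0.91 ± 0.34. In Angptl7, Sparc, Ltbp2 and Igfbp3 the ages did not overlap. In the matrix and basement membrane list 36 of 46 members were below 0 with a median of -0.26, 0 passed, and 6 were lower and 1 higher at an unadjusted p below 0.05, against 3.26% and 4.71% of all genes. The type IV collagens Col4a1 and Col4a2 stood at -0.82 ± 0.36 and -1.03 ± 0.33, and the median was -0.22 with the spike-in set as a block.

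The summed signal of 7 tested dermal fibroblast and papilla genes was 9422 to 11708 in PD25 and 16582 to 30393 in PD21 undivided bulge, and that of 12 tested immune genes was 1651 to 2884 and 3174 to 4191. Neither sum overlapped between the ages, but Sparc, which stands in both the fibroblast and the bulge list, made up 76.5% to 91.2% of the fibroblast sum. Without Sparc that sum was 1427 to 2273 at PD25 and 2322 to 3564 at PD21, and without Thy1, its brightest gene, the immune sum was 812 to 1502 and 1454 to 2194, with overlap. The mean log2 levels overlapped for both lists, at 8.11 to 8.49 in PD25 and 8.10 to 8.71 in PD21 for fibroblast genes and at 6.38 to 7.22 and 7.14 to 7.37 for immune genes. Of the fibroblast genes 3 had a fold change above 0 and 4 below 0. Col3a1, a collagen of fibroblasts in the same list, had a fold change above 0 (1.79 ± 0.65), at 5.94, 7.14 and 6.82 at PD25 and 4.34, 4.82 and 5.38 at PD21. Of the 18 fibroblast genes 10, with Lum, Dcn and Pdgfra among them, and of the 22 immune genes 8, with Ptprc among them, were below the filter on low signal. None of the 19 tested genes passed, and the part of such cells in those bulge, matrix and antigen genes that were lower was not tested. Sums for melanocyte genes, 1034 to 1209 at PD25 and 1068 to 3829 at PD21, overlapped, as did those for endothelial, muscle, nerve and erythroid genes. The 3′ to 5′ signal ratio of Gapdh, a measure of RNA integrity, was 9.46, 5.95 and 5.00 in PD25 and 8.58, 6.19 and 3.21 in PD21 undivided bulge, also with overlap. The same ratio for actin was 1.07, 1.05 and 1.19 in PD25 and 1.0, 0.91 and 0.99 in PD21 undivided bulge, without overlap. The part of RNA integrity in the age effects was not tested.

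Signals of the hair cycle gave few differences in undivided bulge. Of 32 Wnt ligands, receptors and inhibitors Lrp4 alone passed, and Lgr6, an R-spondin receptor, stood at 11.25, 11.01 and 10.65 at PD25 and at 11.34, 11.59 and 11.92 at PD21 (-0.64 ± 0.27). Axin2, a feedback inhibitor and target of the Wnt pathway, stood at 9.12, 9.29 and 9.19 at PD25 and at 9.99, 9.91 and 10.73 at PD21. Its ages did not overlap (-1.01 ± 0.28, adjusted p = 0.2), with -0.83 within set A and -1.49 within set B. Lef1, a nuclear effector of the pathway, had a fold change of -0.95 ± 0.58. Of the 21 tested Wnt targets and nuclear effectors 9 lay above and 12 below 0, with a median of -0.03, and 0 passed. Axin2 had the lowest value of that list, and the highest was 0.55. The median was -0.20 for 35 BMP and TGF-beta genes, -0.39 for 11 Hedgehog genes, -0.10 for 16 FGF and MAPK genes and -0.12 for 18 Notch genes, and 0 of these 80 passed. The Hedgehog targets Gli1 and Ptch1 stood at -0.43 ± 0.88 and -0.38 ± 0.36. The FGF carrier Fgfbp1 stood at 9.22, 9.24 and 10.05 at PD25 and at 10.61, 10.82 and 10.26 at PD21 (-1.06 ± 0.27, adjusted p = 0.137), without overlap.

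Of 23 epidermal differentiation genes 21 were below 0 with a median of -0.63, 0 passed and 4 had an unadjusted p below 0.05, all lower, against 3.26% of all genes. In 1 member the PD25 arrays all lay below the PD21 arrays, a share near the 5.11% of all genes. The median was -1.16 within set A and 0.28 within set B, so its direction turned between the sets. Sprr1a, a cornified envelope protein, stood at 9.56, 9.96 and 10.72 at PD25 and at 12.22, 12.20 and 10.19 at PD21, with PD21 mouse 3 alone among the PD25 values. Fos, an immediate early gene that also responds to tissue dissociation, stood at 10.12, 10.17 and 12.15 at PD25 and at 12.92, 12.83 and 11.72 at PD21 (-1.68 ± 0.51, adjusted p = 0.261), with overlap. Fosb, Atf3 and Zfp36 stood at -1.98, -1.56 and -0.96, and of the 31 genes of that list 6 were lower and 1 higher at an unadjusted p below 0.05, against 3.26% and 4.71% of all genes. The list's median was -0.21, with -0.14 within set A and 0.01 within set B. Antigen presentation genes H2-K1 (-1.10 ± 0.48) and H2-D1 (-0.85 ± 0.31) did not overlap between the ages. Of the 22 genes of the interferon list, which holds both, 0 passed, and 7 lay above and 15 below 0, with a median of -0.22. In 3 members every PD25 array lay below every PD21 array, against 5.11% of all genes, and in 0 members above. At an unadjusted p below 0.05, 3 were lower and 1 higher, against 3.26% and 4.71% of all genes. With single arrays left out the median lay between -0.48 and 0.02. Oxidative phosphorylation (36 genes, median 0.03), hypoxia and glycolysis (27 genes, median 0.03) and ribosome biogenesis (34 genes, median 0.10) lay near the median of all genes.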

How the data were processed

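RNA of sorted skin cells was measured on 18 Affymetrix mouse arrays, 5 ng amplified with Ovation chemistry per the labels' protocols. Values deposited by the authors are linear intensity per probe set, from GCOS per the submitters' processing notes, with no version stated. Each array had the same 2% trimmed mean, so no further scaling was applied. Of 45101 probe sets, 34945 had 1 gene symbol and were used. A probe set was kept if it exceeded its array's median in at least 3 of 18 arrays, and each gene was read from its brightest probe set. Genes on X (338), Y (5) and the mitochondrial genome (1) were left out, and 27 with no listed chromosome were kept.

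The 6 group means were fitted with limma 3.58.1 in R 4.3.3 (lmFit, eBayes with trend) on log2(signal + 16), with 12 residual degrees of freedom and no pairing of mice. Adjustment was by Benjamini-Hochberg across the 11225 genes, with a threshold of 0.05, and no p was adjusted within a list. The method was checked on simulated data with 100 genes changed by a log2 of 1 and 100 by a log2 of 2. It recovered 17% of the former and 69% of the latter and called 4 unchanged genes. A gene that did not pass can therefore still have changed. The number of arrays limits the precision. Labels do not say whether mice were littermates.

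Named genes were, per direction, the genes that passed and then those of lowest p without overlap and with a group mean above the median, up to 12, with up to 4 members per list and a fixed set of markers. Genes of lowest p per direction among those that passed for undivided minus divided bulge were named as well. Other list members, such as Nek2, Plk1, Cdc20, Mcm2 and Foxo1, were named after their values were seen. Members and lists were chosen with earlier results of these data known. Alternatives were the pseudocount, filter, probe set choice, scaling, variance model, array weights, blocks, spike-in sets, X and Y genes, and single arrays left out. The medians of lists under each alternative and the sums without the brightest gene were added after the data were seen.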

Additional observations from a re-analysis of the deposited data

Results flagged for a closer look

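In 20 named genes the difference of the age effects between undivided and divided bulge passed limma's test (adjusted p below 0.05). Over all genes tested 132 passed (1.18%). Arhgdib, Tcim, Pcgf5, Slc22a4, Il33, Scrg1, Phlda1, Timp2 and Pxdc1 were named because they passed it. The 20 are thus no count of hits among genes named beforehand. The difference is given here as undivided minus divided on the log2 scale. It was positive for Kif11 (1.98), Eri2 (2.07), Spc25 (2.23), Elovl6 (1.71), Arhgdib (3.24), Tcim (1.89), Pcgf5 (2.69), Slc22a4 (3.24) and Il33 (3.27). It was negative for the bulge genes Cd34 (-3.47), Lhx2 (-2.47), Sox9 (-2.19), Runx1 (-1.92), Lgr5 (-3.80), Dkk3 (-2.75) and Sfrp1 (-2.62), and for Scrg1 (-4.0), Phlda1 (-2.62), Timp2 (-2.95) and Pxdc1 (-1.97).

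In Kif11, Eri2, Spc25 and Elovl6 the age effect lay in undivided bulge, at 1.42 to 1.74, and between -0.49 and -0.25 in divided bulge. These genes were named by their age effect in undivided bulge, which is a term of this difference. Their selection thus favoured positive values, which are no independent result. In the other 16 genes the age effect lay mainly in divided bulge. Arhgdib had an effect of 0.12 in undivided and -3.12 in divided bulge, and the alarmin Il33 of -0.39 and -3.66. Cd34 had -0.34 and 3.13, and Scrg1 had -0.56 and 3.44. Pcgf5, a Polycomb group member, had 1.06 ± 0.33 in undivided bulge (adjusted p = 0.291) and -1.63 ± 0.33 in divided bulge. The PD21 divided bulge arrays, with Cd34 at 7.91 to 9.68, enter each of these differences, and their part was not tested.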

How the results depend on the processing

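The 4 calls of the age effect became 2 with a pseudocount of 1, without a filter or with the mean of all probe sets, 9 after quantile normalization, 0 after median centring (711 at an unadjusted p below 0.05), 33 with only the groups compared, 0 without a variance trend (859 unadjusted) and 72 with array weights. They became 7 with the mouse as a random block, 11 with X and Y genes kept, of which 4 lie on X or Y, 32 with the spike-in set as a block, 29 within set A, all lower, and 0 within set B (636 unadjusted). With 1 array left out they ran between 0 and 18. The cause was not tested. Median centring moved the median of all genes from 0.023 to -0.079. Over 22 alternatives Kif11 passed in 10, Eri2 in 9, Fcgbp in 17, Lrp4 in 14 and Spc25 in 7, with no change of sign.

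The replicate block on the mouse number gave 82 calls for the age effect. Deviations of same-numbered mice correlated at 0.15, -0.04 and 0.16, PD25 mouse 2 correlated best with PD21 mouse 3, and the mice of the ages differ, so the numbers do not pair them.

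The 132 calls of the difference between undivided and divided bulge became 84 and 235 with pseudocounts of 1 and 64, 227 after quantile normalization, 76 without a trend, 311 with array weights, 368 with the replicate block, 479 with the random block, 380 with the spike-in set as a block, 49 within set A and 0 within set B. The 0 calls against non-bulge became 1 with the replicate block, 1 with the set block and 2 within set A.

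The median of the mitosis list lay between 1.25 and 1.70 over all alternatives, with 49 to 51 members above 0. Among named genes, signs turned in some that did not pass, and the median of the epidermal differentiation list turned between the sets. Within set B these were Wnt10a (0.09), Sprr1a (0.15), Bst2 (-0.10), Krt15 (0.24), Krt5 (0.16), Krt14 (0.18), Lhx2 (0.09), Sox9 (0.07), Tcf7l1 (-0.14), Cdkn1a (0.08), Bmp6 (-1.10) and Sfrp1 (0.06), and within set A Bmp4 (0.29). With the set as a block they were Krt5 (0.07), Krt14 (0.10) and Dkk3 (-0.03), after quantile normalization Krt5 (0.05) and Krt14 (0.03), and with array weights Lhx2 (0.03) and Cdkn1b (0.03). With 1 array left out Krt5 ran between -0.60 and 0.06, Lhx2 between -0.05 and 0.02, Ccnd1 between -0.01 and 0.29, Ccnd2 between -0.19 and 0.47, Bmp6 between -0.12 and 1.22, Fgf18 between -1.69 and 0.21 and Dkk3 between -0.04 and 0.31.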
